A study of Mus musculus with 7 samples.

Results

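The genes described here encode the receptor for the peptides adrenomedullin and calcitonin gene-related peptide (CGRP) and its partners. They are Calcrl, the calcitonin receptor-like receptor, Ramp1, Ramp2 and Ramp3, its receptor activity-modifying proteins (RAMPs), and Adm, the precursor of adrenomedullin. The 5 genes were taken by symbol from a count table of 34305 rows, and all 5 were found. The set was chosen by symbol in view of its measured levels: Ramp3 was selected on its fold change between MN1pQdel and MN1. The levels of the 5 genes in that comparison are therefore a description, and no test is given for them.

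The libraries were made from poly(A) RNA of mouse haematopoietic stem and progenitor cells (HSPCs), a mixed population of blood-forming cells. There were 3 libraries of cells overexpressing MN1pQdel, which the series text also calls MN1-∆pQ, 3 of cells overexpressing MN1 and 1 of cells with no overexpression, titled noTD_CTRL and called noTD here. MN1 is a co-regulator of transcription and a driver of acute myeloid leukaemia, and in MN1pQdel its polyglutamine stretch is deleted. Transduced cells were sorted after transduction, and RNA was taken after 7 to 9 days of culture in medium with serum, SCF (stem cell factor), IL-6 and IL-3. The source label of the noTD library calls it transduced like the others, while its title, its overexpression label and the series text call it untransduced or name no construct. The sources used here do not give the age, sex and strain of the mice, the vector or its promoter. Samples of a group are called independent in the series text, with no word on separate animals. The p-values therefore reflect variation among these samples, which may be technical.

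CALCRL belongs to the class B G protein-coupled receptors and reaches the cell surface only together with a RAMP. The RAMP sets what the receptor binds: with RAMP1 it is the CGRP receptor, and with RAMP2 or RAMP3 it is an adrenomedullin receptor. Both kinds act mainly through the stimulatory G protein Gs, which raises cyclic AMP. The receptor is best known from blood and lymph vessels, and in blood it has been described on stem and progenitor cells and on stem cells of human acute myeloid leukaemia.

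The promoters of Ramp3 and Calcrl are shown because these were the members whose levels did not overlap between MN1pQdel and MN1 libraries. Each window runs 5′ to 3′ from 250 bases before to 50 bases after the annotated start of the gene in RefSeq on GRCm38.p6. The windows are chr11:6658283-6658582 on the plus strand for Ramp3 and chr2:84425217-84425516 on the minus strand for Calcrl. Capitals mark the GC box, GGGCGG on either strand, which is the letters bound by Sp1.
Ramp3: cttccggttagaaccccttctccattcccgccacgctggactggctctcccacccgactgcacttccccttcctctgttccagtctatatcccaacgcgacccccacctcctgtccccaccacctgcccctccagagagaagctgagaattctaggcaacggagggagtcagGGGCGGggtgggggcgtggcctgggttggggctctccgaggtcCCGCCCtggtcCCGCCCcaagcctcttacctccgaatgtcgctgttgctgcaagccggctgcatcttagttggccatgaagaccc
Calcrl: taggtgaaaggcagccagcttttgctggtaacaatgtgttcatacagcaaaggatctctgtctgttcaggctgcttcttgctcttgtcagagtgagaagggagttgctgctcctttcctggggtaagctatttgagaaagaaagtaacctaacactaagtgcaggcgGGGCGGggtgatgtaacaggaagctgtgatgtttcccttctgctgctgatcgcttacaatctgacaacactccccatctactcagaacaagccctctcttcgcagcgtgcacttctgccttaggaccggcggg
The Ramp3 window held 3 GC boxes and the Calcrl window held 1. The same letters occurred in 35.7% of 32851 such windows, and at least 3 of them in 10.7%. The Ramp3 window was 63.67% G and C and the Calcrl window 50.67%, where the median window had 52.67%. Each window also held the letters AGGAAG of an ETS core once, which occurred in 35.4% of windows on either strand and overlapped no GC box here. Neither held TGACGTCA (the cAMP response element), ACGTG (a hypoxia response core), TGACAG (a MEIS core) or TGATTTAT (a PBX-HOX element) on either strand. Those occurred in 1.79%, 19.6%, 19.2% and 0.977% of windows. These are matches of letters, not tested binding sites. The Ramp1 window on chromosome 1, from the same table, held 0 GC boxes and 1 MEIS core. The Adm window on chromosome 7 held 1 GC box, as the Calcrl window did. The table matched 4 of the 5 members, and no window of Ramp2 was used.

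Library totals ran from 38210660 to 67728658 counts, and 1 count was worth 0.0163 to 0.0281 CPM, the unit used here for counts scaled to a common library size. Mn1, to which reads of the constructs may add, stood at 692, 401 and 731 CPM in the MN1pQdel libraries, at 313, 286 and 283 CPM in the MN1 libraries and at 34.5 CPM in the noTD library. It was thus higher in MN1pQdel than in MN1, at 1.05 on the log2 scale (SE 0.23, adjusted p = 0.0282, edgeR with Benjamini-Hochberg adjustment). Of 15 stem and progenitor markers all had counts and 13 averaged over 1 CPM, led by Kit. Their summed level was 841 to 1339 CPM in MN1pQdel, 1682 to 2044 CPM in MN1 and 1327 CPM in noTD. Kit itself averaged 553 CPM in MN1pQdel and 323 CPM in MN1. By edgeR 13 of these markers were tested, and 5 were lower in MN1pQdel and 0 higher (adjusted p under 0.05). Over all tested genes 6.08% were lower. The part of these markers in the levels of the members was not tested. MN1pQdel replicate 2 stood apart from its group: its 9 eosinophil markers summed to 234 CPM, against 3405 and 3665 CPM in the other MN1pQdel libraries, and its 12 mast cell markers to 3149 CPM, against 15503 and 18539 CPM. In MN1 the eosinophil markers summed to 13.3 to 21.3 CPM and the mast cell markers to 1741 to 4059 CPM, and in noTD to 3905 and 16512 CPM. In bulk RNA, fewer cells of a type and less RNA per cell cannot be told apart.

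Calcrl (chromosome 2, 84330626 to 84425411 on GRCm38, minus strand, protein coding), the receptor itself, was lower in every MN1pQdel library than in any MN1 library. It stood at 6.14, 23.4 and 11.2 CPM in MN1pQdel replicates 1 to 3, at 28.4, 52.3 and 86.7 CPM in MN1 replicates 1 to 3 and at 10.3 CPM in the noTD library. The gap between the groups was narrow, with the lowest MN1 library at 1.21 times the highest MN1pQdel library. The means were 13.6 ± 8.87 CPM in MN1pQdel and 55.8 ± 29.3 CPM in MN1 (SD, n = 3 each), which gave a fold change of -2.04 on the log2 scale (SE 0.58) for MN1pQdel over MN1. The spread within the groups was wide, since the highest library was 3.81 times the lowest in MN1pQdel and 3.06 times the lowest in MN1. The lowest MN1 library lay nearer to MN1pQdel replicate 2 than to the other MN1 libraries.

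Ramp3 (chromosome 11, 6658521 to 6677475, plus strand, protein coding), a RAMP of the adrenomedullin receptor, showed the widest difference of the 5 genes. It stood at 2.38, 15.1 and 0.599 CPM in MN1pQdel replicates 1 to 3, at 289, 237 and 363 CPM in MN1 replicates 1 to 3 and at 7.49 CPM in the noTD library. The lowest MN1 library stood at 15.7 times the highest MN1pQdel library. The means were 6.03 ± 7.91 CPM in MN1pQdel and 296 ± 63.7 CPM in MN1 (SD, n = 3 each), so the MN1pQdel mean was 2.04% of the MN1 mean. The log2 fold change was -5.61 (SE 1.11). The MN1 libraries were close to each other, with the highest 1.54 times the lowest, while the MN1pQdel libraries spread over 25.2 times. These values rest on 24 to 744 counts per MN1pQdel library and 10269 to 17429 counts per MN1 library.

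**Figure D1:**
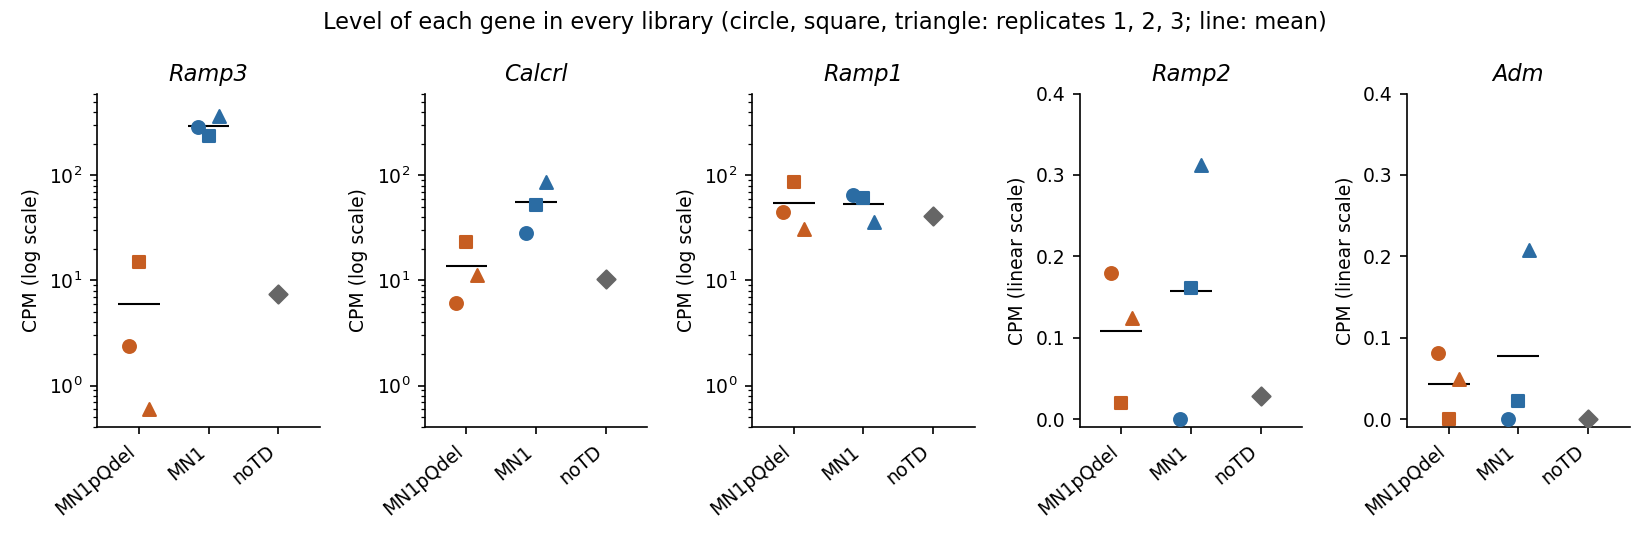
CPM of Ramp3, Calcrl and Ramp1 on a log axis and of Ramp2 and Adm on a linear axis, with 1 point per library and a line at the mean of each transduced group. For Ramp3 all MN1 points lie at or above 237 CPM and all MN1pQdel points at or below 15.1 CPM, while the Ramp1 points of the groups mix.

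MN1pQdel replicate 2 was the highest library of its group for Calcrl, Ramp3 and Ramp1 alike. It also had the lowest Mn1 level of its group and the low eosinophil and mast cell marker sums given above, and the part of these in the values was not tested. Without it the log2 fold change was -7.58 for Ramp3, -2.72 for Calcrl and -0.52 for Ramp1. Over the 6 fits that each left out 1 transduced library, Ramp3 ran from -7.58 to -5.09, Calcrl from -2.72 to -1.58 and Ramp1 from -0.52 to 0.30. The fold change of Ramp1 changed sign between these fits, and those of Ramp3 and Calcrl did not. For Ramp3 and Calcrl every MN1pQdel library lay below every MN1 library, so leaving out 1 library could not turn the sign.

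Ramp1 (chromosome 1, 91179822 to 91225196, plus strand, protein coding), the RAMP of the CGRP receptor, had overlapping levels in all groups. It stood at 45.1, 86.9 and 30.7 CPM in MN1pQdel, at 64.9, 60.2 and 35.7 CPM in MN1 and at 41.0 CPM in the noTD library. The groups overlapped, and both the highest and the lowest library were MN1pQdel. The means were 54.2 ± 29.2 CPM in MN1pQdel and 53.6 ± 15.7 CPM in MN1 (SD, n = 3 each), which gave a fold change of 0.02 on the log2 scale (SE 0.40). The standard error leaves room for a difference in either direction.

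Ramp2 (chromosome 11, 101246028 to 101259546, plus strand, protein coding), the RAMP of the vascular adrenomedullin receptor, was close to absent from every library. It had 11, 1 and 5 counts in MN1pQdel replicates 1 to 3, 0, 7 and 15 counts in MN1 replicates 1 to 3 and 1 count in the noTD library. The sums of 17 and 22 counts give a ratio of 0.680 for MN1pQdel over MN1 (95% exact interval 0.339 to 1.34, counting error only), so no difference was detectable at this depth. The gene overlaps Vps25, a sorting complex gene of the same strand at 66.2 ± 7.86 CPM in MN1pQdel and 64.4 ± 3.32 CPM in MN1 (SD, n = 3 each), and the few counts of Ramp2 could be shared with it.

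Adm (chromosome 7, 110627661 to 110629820, plus strand, protein coding), the ligand precursor, was likewise near 0. It had 5, 0 and 2 counts in MN1pQdel replicates 1 to 3, 0, 1 and 10 counts in MN1 replicates 1 to 3 and 0 counts in the noTD library, where 3 counts would have been 0.0844 CPM. The ratio of the sums of 7 and 11 counts was 0.560 (95% exact interval 0.184 to 1.58, counting error only). Of its 11 counts in MN1, 10 came from replicate 3, which also had the most Ramp2 counts and the highest Ramp3 and Calcrl levels.

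In the fit over all genes, 3 of the 5 members, Ramp3, Calcrl and Ramp1, passed the filter on low counts. Of the 14808 genes tested, 17.2% were past the threshold (adjusted p under 0.05), 6.08% as lower in MN1pQdel, and no call is given for the members. With the replicate number as a block, the log2 fold change was -2.10 for Calcrl and -6.45 for Ramp3. The groups did not overlap for Ramp3 and Calcrl, as for 43.4% of the tested genes, 21.3% as lower in MN1pQdel. The members were chosen in view of this comparison, so nothing is read from this.

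**Figure D2:**
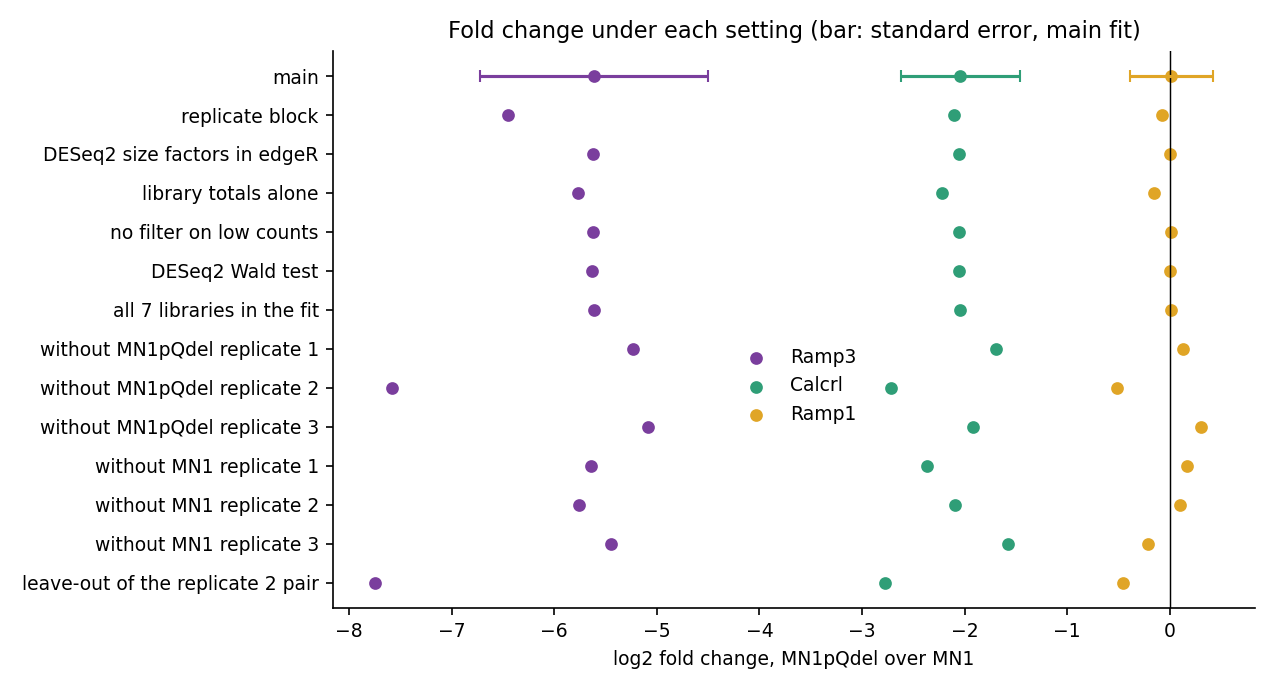
Log2 fold change of MN1pQdel over MN1 for Ramp3, Calcrl and Ramp1 (x axis) under the main fit, with its standard error, and under each other setting (rows). Ramp3 stays between -7.74 and -5.09, and the farthest values are those without MN1pQdel replicate 2 and without the replicate 2 pair.

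Levels were then set per kilobase of annotated exons, so that the members can be compared with each other. On this scale Ramp3 was the leading RAMP in MN1 libraries and Ramp1 in all other libraries. Ramp3 made up 10.3%, 27.6% and 4.09% of the RAMP sum in MN1pQdel replicates 1 to 3, 90.7%, 89.6% and 95.7% in MN1 replicates 1 to 3 and 28.6% in the noTD library. Ramp1 made up 72.4% to 95.6% in MN1pQdel, 4.30% to 10.4% in MN1 and 71.4% in the noTD library. Ramp2 stayed at or below 0.356% of the sum in every library.

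The RAMP sum itself was 16.7, 39.7 and 10.6 CPM per kb in MN1pQdel, 231, 191 and 275 CPM per kb in MN1 and 19.0 CPM per kb in the noTD library. Calcrl stood at 1.26, 4.79 and 2.30 CPM per kb in MN1pQdel, at 5.81, 10.7 and 17.8 CPM per kb in MN1 and at 2.10 CPM per kb in the noTD library. RAMP mRNA thus exceeded Calcrl mRNA per length in each of the 7 libraries, by 4.63 to 13.3 times in MN1pQdel, 15.5 to 39.7 times in MN1 and 9.03 times in noTD. Ramp3 alone was 0.189 to 2.28 times Calcrl in MN1pQdel and 14.8 to 36.0 times in MN1. These are mRNA levels, and the amounts of protein were not measured.

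**Figure D3:**
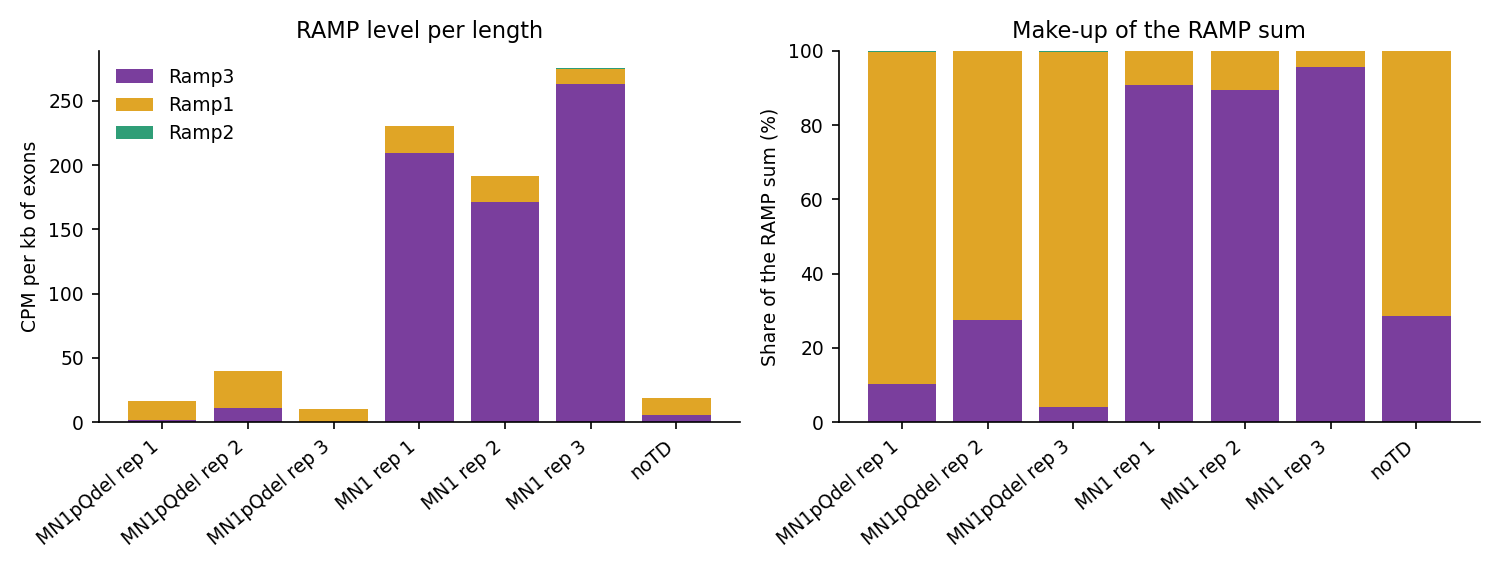
Stacked bars of Ramp3, Ramp1 and Ramp2 per library, as CPM per kb of exons (left) and as a share of their sum in percent (right). The MN1 bars are tall and mostly Ramp3 (89.6% to 95.7%), and the MN1pQdel and noTD bars are low and mostly Ramp1.

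Among 34081 genes with an annotated length, Ramp3 ranked 9532nd, 4482nd and 11920th by CPM per kb in MN1pQdel replicates 1 to 3, and 221st, 269th and 167th in MN1 replicates 1 to 3. It ranked 6745th in the noTD library. Of the ranked genes, 19820 to 21002 had a count in a given library, and the rest were at 0. Ramp1 ranked between 1938th and 4783rd in MN1pQdel and between 2458th and 4086th in MN1. Calcrl ranked between 7102nd and 10184th in MN1pQdel and between 2866th and 6476th in MN1.

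The noTD library gives the level without either construct. It is 1 library, so no test was made, and differences are in log2 CPM with a prior count of 2. Ramp3 in MN1pQdel differed from noTD by -1.39 on average, from -3.55 in replicate 3 to 1.01 in replicate 2. In MN1 it lay 5.28 above noTD, from 4.97 to 5.59 over the libraries. Calcrl differed from noTD by 0.19 in MN1pQdel, from -0.74 to 1.18 over the libraries, and by 2.29 in MN1, from 1.46 to 3.07. Ramp1 differed by 0.27 in MN1pQdel and 0.34 in MN1, with libraries on both sides of noTD in each group.

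Ramp3 and Calcrl were thus at least 2-fold higher than noTD in MN1, as were 7.74% of 11327 genes with enough counts, and at least 2-fold higher genes made up 0.245% of 11018 in MN1pQdel. Genes at least 2-fold lower made up 3.01% in MN1pQdel, with Ramp3 among them. Leaving out 1 MN1pQdel library, Ramp3 in MN1pQdel differed from noTD by -2.59 without replicate 2 to -0.31 without replicate 3. Both groups are set against the same single library, so these 2 comparisons share it.

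The other genes of the pathway were taken from 8 lists of 103 genes by role, of which 86 were tested. In MN1pQdel 5 were lower and 9 higher than in MN1 (adjusted p under 0.05 by the quasi-likelihood test of edgeR with Benjamini-Hochberg adjustment), which is 16.3% of those tested and close to the 17.2% of all genes. Glp1r and Mc1r, described below, were among the 5 lower genes and entered the test only through their counts in MN1. With the replicate number as a block 6 pathway genes were lower and 18 higher, beside 2022 and 2523 of all 14808 genes. Without MN1pQdel replicate 2, 12 were lower and 21 higher, beside 3146 and 3248 of the 15252 genes tested in that fit.

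Among 10 genes of other ligands, processing and clearance, 7 were tested, 1 was lower and 0 were higher, with a median log2 fold change of 0.05 against 0.01 over all tested genes. The one that passed was Ide, the insulin-degrading enzyme, which also cuts other small peptides. It stood at 54.7 ± 6.33 CPM in MN1pQdel and 75.0 ± 4.78 CPM in MN1 (SD, n = 3 each), so that the log2 fold change was -0.45 (SE 0.12) with an adjusted p of 0.0462 by edgeR with Benjamini-Hochberg adjustment.

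Calca and Calcb, which encode the CGRP peptides, with calcitonin also made from Calca, were looked at after their values were seen. Calca stood at 37.3, 11.3 and 31.3 CPM in MN1pQdel replicates 1 to 3, at 19.3, 5.62 and 15.4 CPM in MN1 replicates 1 to 3 and at 40.7 CPM in the noTD library. The groups overlapped, replicate 2 was the lowest library in both, and MN1pQdel was higher than MN1 in each of the 3 same-numbered pairs. Its log2 fold change was 0.98 (SE 0.56, edgeR Benjamini-Hochberg adjusted p = 0.240) without a block and 0.99 (SE 0.10, adjusted p = 0.0102) with the replicate number as a block. Calcb was far lower, at 0.597 ± 0.401 CPM in MN1pQdel and 0.162 ± 0.147 CPM in MN1 (SD, n = 3 each), and it passed with the block (adjusted p = 0.0372) and not without it (adjusted p = 0.167). The table is per symbol, so calcitonin and CGRP transcripts of Calca cannot be told apart, and the like sequences of Calca and Calcb could share reads. Calca was thus the most abundant ligand gene, while Adm and Iapp, the amylin gene, were at or near 0 and Adm2, the gene of the related peptide intermedin, averaged 0.315 ± 0.219 CPM in MN1pQdel and 0.568 ± 0.414 CPM in MN1 (SD, n = 3 each).

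Pam, the enzyme that adds the terminal amide these peptides need, stood at 21.2 ± 8.69 CPM in MN1pQdel and 20.4 ± 2.35 CPM in MN1 (SD, n = 3 each), with a log2 fold change of 0.05 (SE 0.29). Mme, which encodes the peptide-cutting protease neprilysin, averaged under 1 CPM in all groups. Ackr3, an atypical receptor that takes up adrenomedullin, averaged 0.119 CPM in MN1pQdel and 0.0455 CPM in MN1.

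Of 13 other receptors described as RAMP partners, the calcitonin receptor among them, 5 were tested, 1 was lower and 0 were higher, with a median of -0.23. Calcr had no counts in MN1pQdel, 0.0154 CPM on average in MN1 and 0 CPM in the noTD library. Glp1r, the receptor of the gut hormone GLP-1, was the gene that passed, on few counts, and it entered the test only through its counts in MN1. It had 1, 2 and 0 counts in MN1pQdel, 19, 17 and 36 counts in MN1 and 2 counts in the noTD library. Adcyap1r1, the receptor of the peptide PACAP, had 24, 2 and 6 counts in MN1pQdel and 1, 1 and 0 counts in MN1 and was not tested, so the count of this list depends on the filter. For Glp1r the ratio of the sums was 0.0366 for MN1pQdel over MN1 (95% exact interval 0.00738 to 0.111, counting error only).

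Of 9 genes of receptor coupling and traffic, 4 were higher in MN1pQdel and 0 lower, with a median of 0.72. The share of all tested genes that were higher was 11.1%. With the replicate block 6 of the list were higher, beside 2523 of all 14808 genes. Arrb2, a beta-arrestin that stops receptor signalling and drives uptake, stood at 416 ± 124 CPM in MN1pQdel and 114 ± 16.7 CPM in MN1 (SD, n = 3 each), which gave a fold change of 1.87 on the log2 scale (SE 0.24). Arrb1, the other beta-arrestin, differed by 0.70 (SE 0.10), and the receptor kinases Grk2 and Grk6 differed by 0.89 (SE 0.13) and 0.72 (SE 0.11). These 4 had edgeR Benjamini-Hochberg adjusted p between 0.00742 and 0.0122. In MN1 their levels lay below noTD, where Arrb2 stood at 531 CPM and Grk2 at 611 CPM. The 12 neutrophil markers summed to 26811 to 37162 CPM in MN1pQdel, 4293 to 7967 CPM in MN1 and 39770 CPM in noTD, and their part in these values was not tested. Crcp, the receptor component protein that couples CALCRL to its G protein, stood at 33.3 ± 1.30 CPM in MN1pQdel and 32.2 ± 4.32 CPM in MN1 (SD, n = 3 each). Slc9a3r1, a scaffold that binds RAMP3, did not pass at a log2 fold change of 1.10 (SE 0.31, adjusted p = 0.0526) and passed with the replicate block (adjusted p = 0.0259).

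Of 16 tested genes of Gs, adenylyl cyclases, protein kinase A and EPAC, 0 passed in either direction by edgeR without a block, with a median of 0.09. With the replicate block 1 was higher, Prkacb, a catalytic subunit of protein kinase A (adjusted p = 0.0403). Without MN1pQdel replicate 2, edgeR called 2 lower and 2 higher. At an unadjusted p under 0.05, 0 were lower and 2 higher, and DESeq2 called 2 higher. Gnas, the gene of the Gs alpha subunit and the most abundant of them, stood at 720 ± 78.4 CPM in MN1pQdel and 666 ± 62.7 CPM in MN1 (SD, n = 3 each). Its log2 fold change was 0.11 (SE 0.13), and with library totals alone it was -0.10. Of 10 cAMP phosphodiesterases, 1 was higher and 0 lower, with a median of 0.17. It was Pde8a, at 42.8 ± 7.83 CPM in MN1pQdel and 20.4 ± 2.03 CPM in MN1 (SD, n = 3 each), so that the log2 fold change was 1.07 (SE 0.17) with an adjusted p of 0.0122 by edgeR with Benjamini-Hochberg adjustment.

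Of 13 genes of the CREB family, its coactivators and its target genes, 2 were lower in MN1pQdel and 0 higher, with a median of 0.04. Both encode orphan nuclear receptors. Nr4a2 stood at 1.58 ± 0.0816 CPM in MN1pQdel and 3.03 ± 0.459 CPM in MN1 (SD, n = 3 each), which gave a fold change of -0.94 on the log2 scale (SE 0.24), and Nr4a3 at 0.306 ± 0.0492 CPM in MN1pQdel and 0.892 ± 0.179 CPM in MN1, at -1.53 (SE 0.31). Their edgeR Benjamini-Hochberg adjusted p were 0.0438 and 0.0237. Fos, Per1, Sik1 and Dusp1, other genes that cyclic AMP can raise, did not pass, with log2 fold changes from -0.18 to 0.46. Nr4a1, of the same family as Nr4a2 and Nr4a3, differed by -0.82 (SE 0.36, adjusted p = 0.140) and passed as lower with the replicate block (adjusted p = 0.0418).

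Of 8 tested receptors that also couple to Gs, 3 were higher and 1 lower in MN1pQdel, with a median of 0.96. Hrh2, a histamine receptor, stood at 26.7 ± 16.5 CPM in MN1pQdel and 4.85 ± 0.470 CPM in MN1, and Ptger2, a prostaglandin E receptor, at 11.3 ± 3.94 CPM in MN1pQdel and 2.91 ± 0.601 CPM in MN1 (SD, n = 3 each). Mc1r, a melanocortin receptor, differed by -1.52 (SE 0.32) on the log2 scale, on 7 to 12 counts per MN1pQdel library and 19 to 29 counts per MN1 library. Like Glp1r, Mc1r entered the test only through its counts in MN1. The edgeR Benjamini-Hochberg adjusted p of Hrh2, Ptger2 and Mc1r lay between 0.0131 and 0.0264. Hrh2 stood at 28.4, 9.38 and 42.3 CPM in MN1pQdel replicates 1 to 3 and at 39.7 CPM in noTD, low in replicate 2 like the mast cell and eosinophil marker sums given above. All 12 neutrophil markers, 7 of 9 tested eosinophil markers and 6 of 12 mast cell markers were higher in MN1pQdel. Over all tested genes the share higher was 11.1%. The part of these markers in the levels of these receptors was not tested.

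Adm is a well-known target of hypoxia, so 18 hypoxia-response genes were read too. In MN1pQdel 1 was higher and 0 lower by edgeR, with a median of -0.28. DESeq2 called 4 lower and 1 higher, and 4 were lower at an unadjusted p under 0.05 in edgeR. Mxi1, a MYC antagonist, stood at 77.9 ± 3.26 CPM in MN1pQdel and 44.4 ± 4.28 CPM in MN1 (SD, n = 3 each), so that the log2 fold change was 0.81 (SE 0.11) with an adjusted p of 0.00861 by edgeR with Benjamini-Hochberg adjustment. Vegfa and Slc2a1, standard genes of this response, were present at means of 58.8 and 110 CPM in MN1pQdel and 74.8 and 128 CPM in MN1, in the same libraries in which Adm was near 0.

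**Figure D4:**
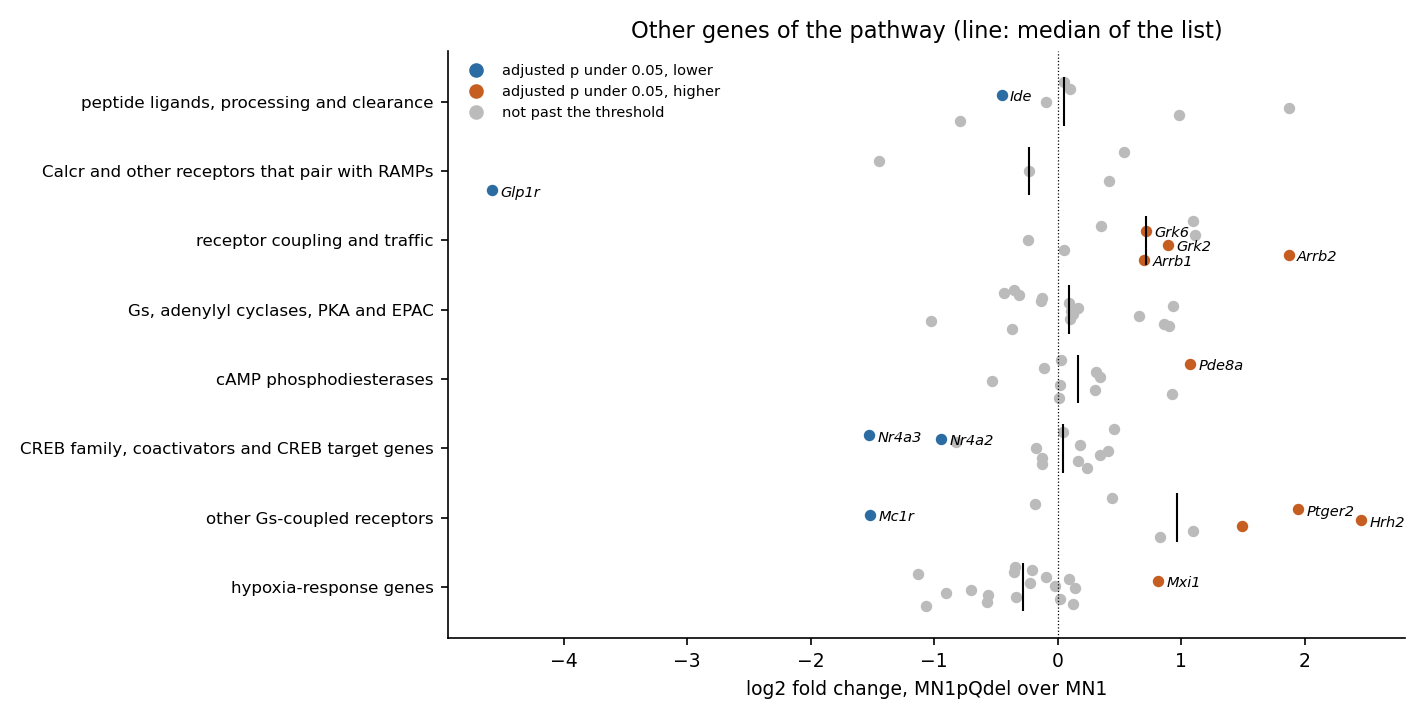
Log2 fold change of MN1pQdel over MN1 (x axis) for the 86 tested pathway genes by list (rows), with a vertical line at each list's median and names for 13 of the 14 genes with an adjusted p under 0.05. The receptor coupling and other Gs-coupled receptor lists lie to the right, with medians of 0.72 and 0.96.

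The pathway calls varied with single libraries. Arrb1, Arrb2 and Mxi1 passed in each of the 6 fits that left out 1 library. Glp1r lost the call without MN1pQdel replicate 1 (edgeR adjusted p = 0.0579) and Grk2 without MN1 replicate 3 (adjusted p = 0.0504). Pde8a passed in 4 of 6 fits, with adjusted p up to 0.0606. Grk6 and Ptger2 passed in 3 of 6, with adjusted p up to 0.0653 and 0.0616. Ide, Nr4a2, Nr4a3, Hrh2 and Mc1r passed in 1 of 6, the fit without MN1pQdel replicate 2, and had adjusted p up to 0.153, 0.152, 0.0939, 0.0976 and 0.0991. All 14 genes kept their direction in these fits, which was fixed in advance because their groups did not overlap. Scaling by library totals alone moved the median of all genes by -0.20, and the medians of the ligand, Gs, phosphodiesterase and CREB lists then turned negative, at -0.13, -0.11, -0.04 and -0.18.

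The genomic surroundings of the members were read from protein-coding genes within 200000 bases. Over all tested genes 6.08% were lower and 11.1% higher in MN1pQdel, and the counts here are small. Around Ramp3, 5 such genes were tested, 0 were lower and 2 were higher in MN1pQdel, the opposite direction to Ramp3. These were Ccm2, the cerebral cavernous malformation gene 61777 bases away, at 0.61 on the log2 scale (SE 0.11, adjusted p = 0.0180, edgeR with Benjamini-Hochberg adjustment), and Myo1g, a myosin gene of blood cells (0.62, SE 0.14, adjusted p = 0.0320). Around Calcrl, both Tfpi, the tissue factor pathway inhibitor gene 7444 bases away, and Ctnnd1, the p120 catenin gene, were tested and neither passed. Tfpi differed by -1.40 (SE 0.67) and Ctnnd1 by -0.72 (SE 0.26), with adjusted p = 0.170 and 0.0986. Around Ramp1, 9 were tested, with 3 lower and 1 higher. Klhl30, among the 3 lower, averaged 0.0638 CPM in MN1pQdel and 1.24 CPM in MN1. It entered the test only through its counts in MN1. A pseudogene, Gm11978, overlaps Ramp3 on the opposite strand. It had 0, 1 and 0 counts in MN1pQdel and 9, 9 and 24 in MN1, and without a stated strand these cannot be told apart from Ramp3 reads.

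The genes most like each member were found by Pearson r of log2 CPM over the 7 libraries, among 9823 genes whose average reached 5 CPM. The MN1 libraries lie apart from the rest, so r draws largely on that split, and 897 genes had r over 0.9 with Ramp3. The 5 highest were Esyt3, an extended synaptotagmin gene (r = 0.997), Hs3st5, a heparan sulfate sulfotransferase gene (0.997), Vars2, the mitochondrial valyl-tRNA synthetase gene (0.995), Bex3 (0.994) and Trp53i11 (0.993). Esyt3 stood at 1.32, 9.44 and 0.350 CPM in MN1pQdel, 96.5, 98.4 and 110 CPM in MN1 and 5.04 CPM in the noTD library. Like Ramp3, it was highest in replicate 2 and lowest in replicate 3 among the MN1pQdel libraries. Hs3st5 had the same order there, at 0.244, 1.20 and 0.0499 CPM, against 16.3 to 24.0 CPM in MN1. Both genes were picked by r with Ramp3 over these same libraries, so the shared order follows in part from that choice.

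For Calcrl, 689 genes had r over 0.9, and the 5 highest were L3mbtl3, a chromatin reader gene (0.996), Rad1, a DNA damage clamp gene (0.993), Zscan12 (0.991), Polrmt, the mitochondrial RNA polymerase gene (0.989), and Orc5, an origin recognition gene (0.989). These genes kept the order of Calcrl over all 7 libraries (Spearman rho = 1), and 80 of the 9823 genes did so. They varied far less than Calcrl, as L3mbtl3 ran from 17.8 to 24.2 CPM in MN1pQdel and from 26.5 to 35.6 CPM in MN1. For Ramp1, 74 genes had r over 0.9, led by Bcat2 (0.982), Zfp341 (0.982) and Pxylp1 (0.980). The lists depended on the measure: by Spearman rho 1 of the 5 genes named for Ramp3 stayed among the highest, and with the 6 transduced libraries alone 2 of 5 stayed for Ramp3 and 2 of 5 for Calcrl.

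**Figure D5:**
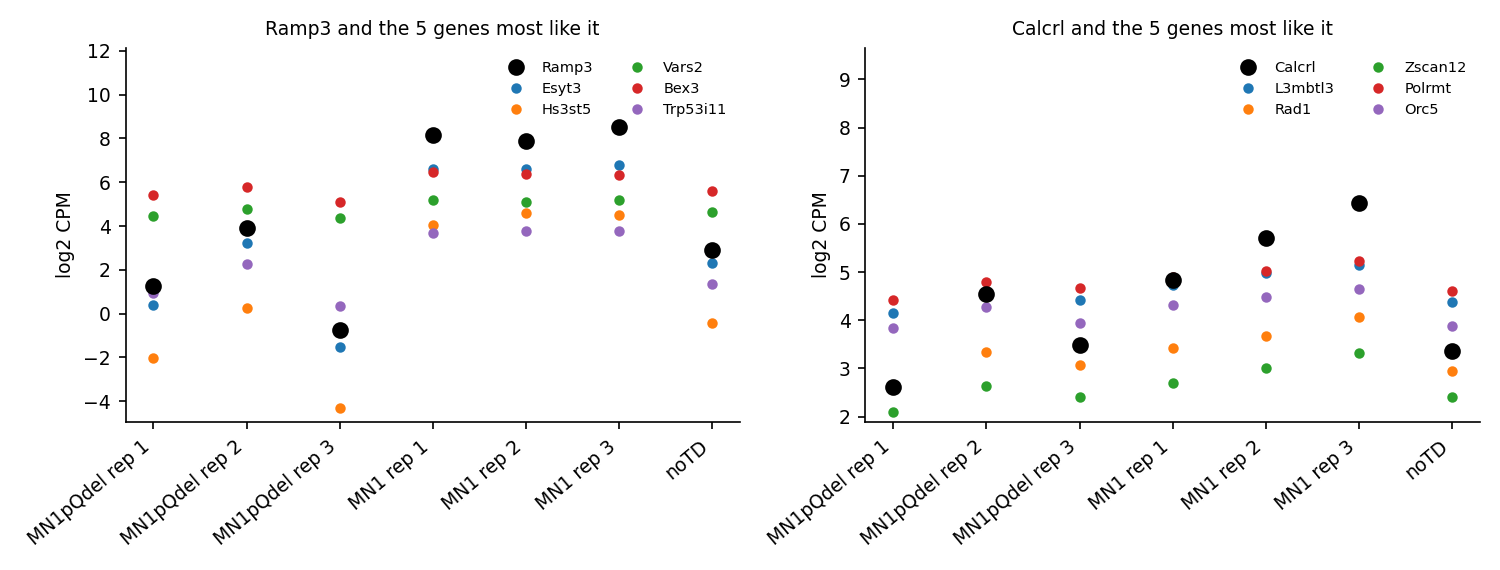
Log2 CPM in each library (x axis) of Ramp3 with its 5 most similar genes (left) and of Calcrl with its 5 (right), with the member as large black points. Ramp3, Esyt3 and Hs3st5 each show MN1pQdel replicate 2 above replicates 1 and 3 and all MN1 libraries far above them.

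Calcrl and Ramp3 are also genes of vessel lining, so endothelial markers were read beside them. Of 14 endothelial markers 13 had counts and 9 averaged over 1 CPM, and their sum was 291 to 538 CPM in MN1pQdel, 272 to 356 CPM in MN1 and 469 CPM in noTD. The most abundant was Pecam1, which blood cells also make, at 268 CPM on average in MN1pQdel and 168 CPM in MN1. Cdh5, the VE-cadherin gene that defines endothelium, had 0 to 1 counts per MN1pQdel library, 1 to 3 counts per MN1 library and 0 in noTD, and Robo4 had 0 in every library. Of the 10 endothelial markers tested, 2 were lower in MN1pQdel and 0 higher, with a median log2 fold change of -0.46. Over all tested genes 6.08% were lower and 11.1% higher, with a median of 0.01. Egfl7, a secreted vessel protein gene, stood at 7.80 ± 4.42 CPM in MN1pQdel and 24.4 ± 3.36 CPM in MN1, and Plvap, a gene of endothelial pores, at 0.655 ± 0.135 CPM in MN1pQdel and 1.47 ± 0.116 CPM in MN1 (SD, n = 3 each). Their edgeR Benjamini-Hochberg adjusted p were 0.0364 and 0.0354. Eng, a TGF-beta co-receptor gene, averaged 11.6 CPM in MN1pQdel and 33.8 CPM in MN1, and Tie1, a receptor kinase gene, 2.54 CPM in MN1pQdel and 6.20 CPM in MN1, and neither passed (adjusted p = 0.0780 and 0.159). Vwf, the von Willebrand factor gene, averaged 107 CPM in MN1pQdel and 24.3 CPM in MN1 and did not pass (adjusted p = 0.0615). The part of these in the levels of Ramp3 and Calcrl was not tested. The 6 lymphatic endothelial markers summed to 2.54 to 4.53 CPM in MN1pQdel and 3.50 to 13.9 CPM in MN1, led by Pdpn and with Ccl21a at 0. Of these 2 were tested, and 1 was higher in MN1pQdel. It was Lyve1, at 0.742 CPM on average in MN1pQdel and 0.0539 CPM in MN1, and it entered the test only through its counts in MN1pQdel. The 10 fibroblast and stromal markers summed to 23.2 to 29.1 CPM in MN1pQdel and 23.0 to 30.8 CPM in MN1, led by Thy1. Among the 5 of them tested, 1 was lower and 1 higher in MN1pQdel. The 12 monocyte and macrophage markers summed to 1052 to 1254 CPM in MN1pQdel and 555 to 611 CPM in MN1, and the 11 lymphocyte markers to 5.02 to 7.33 CPM in MN1pQdel and 7.67 to 8.52 CPM in MN1. The 12 erythroid and megakaryocyte markers summed to 671 to 1316 CPM in MN1pQdel and 605 to 1023 CPM in MN1.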

How the data were processed

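Poly(A) RNA was sequenced as paired reads of 150 bases. Estimated counts for 7 libraries were deposited by the authors in 1 table, by gene symbol. Kallisto, DESeq2 and GRCm38 are named per the submitters' processing notes, with no versions or strand setting given in the sources used here. Of the values, 32.5% were not whole numbers (tolerance 1e-06), so the estimated counts were rounded. The 26 rows whose symbols had become dates (0.172% of counts) were left out of the ranks and of the search for similar genes. They stayed in the library totals and in the fits.

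The MN1pQdel and MN1 libraries were compared with edgeR 4.0.16 in R 4.3.3 (filterByExpr, TMM scaling, quasi-likelihood test, Benjamini-Hochberg adjustment over 14808 genes, threshold 0.05), which was tested on simulated data. CPM used TMM scaling over all 7 libraries. Intervals and floors (3 counts) cover counting error only. Exon lengths and positions came from GENCODE M21 (GRCm38).

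Same-numbered replicates deviated together (r = 0.368, 0.259 and 0.321, against -0.282 to -0.0603 for other pairs), and same numbers were read as pairs on this ground, since the labels say nothing of it. Deviations were taken from group means, so positive values for same-numbered pairs push those of other pairs below 0. That contrast is therefore partly built in. Calls with the replicate block rest on a pairing read from these same data. Replicates of a group differed by more than sampling noise (chi-square per gene 43.3 to 352).

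Alternatives were a replicate block, DESeq2 1.42.0 and its size factors, library totals, no filter, all 7 libraries, each library left out, another prior count, another length and another measure of likeness. The members and lists were chosen with earlier results of these data known. Pathway genes named are up to 4 past the threshold per list with the largest fold change, or else the most abundant, and others were named after their values were seen. The genes most like a member, 5 for Ramp3 and Calcrl and 3 for Ramp1, were taken by r. Some genes of the lists are counted but not reported by name here.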

Additional observations from a re-analysis of the deposited data

How the results depend on the processing

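Ramp3 and Calcrl kept their direction in every fit of MN1pQdel against MN1. Their levels did not overlap between the groups, so leaving out libraries could not turn that direction. Ramp3 had a log2 fold change of -7.58 to -5.09 over the fits that left out 1 library, and -7.74 without the replicate 2 pair, an alternative chosen after seeing the data. Genes lower and higher in MN1pQdel numbered 901 and 1643, and 2022 and 2523 with the replicate block, where 18 pathway genes were higher. Among the pathway genes the block added the calls of Calca, Calcb, Slc9a3r1, Grk5, Prkacb, Pde3b, Crtc2, Crtc3, Nr4a1 and Adora2b to those described. With library totals alone 1847 genes and 9 pathway genes were lower, 61.8% of calls were lower against 35.4%, Gnas stood at -0.10, and 1486 genes were at least 2-fold higher in MN1 than in noTD, against 877. The DESeq2 Wald test called 1906 genes lower and 2445 higher, and 9 pathway genes lower and 15 higher. Without a filter 907 genes and 3 pathway genes were lower. Without the replicate 2 pair 2630 genes were lower and 2617 higher, with 11 and 19 pathway genes.

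Leaving out 1 library gave 95 to 3146 genes lower, 378 to 3248 higher, 0 to 12 pathway genes lower and 5 to 21 higher. The lowest count of genes lower came without MN1pQdel replicate 1 and the highest counts without MN1pQdel replicate 2. At least 2-fold higher genes in MN1pQdel than in noTD numbered 44 to 148, against 27 with all libraries, and lower genes 211 to 523, against 332. The cause of these shifts was not tested. With the longest transcript as the length, Ramp3 made up 11.6% ± 10.4 of the RAMP sum in MN1pQdel and 90.1% ± 3.92 in MN1 (SD, n = 3 each). The counts of Ramp2 and Adm are too few to show a difference.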
